A study of Homo sapiens with 6 samples.

Results

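A set of 9 interferon-stimulated genes was followed across every library of an RNA-seq comparison in HEK293T cells, a human embryonic kidney line that carries a viral large T antigen. They are *IFIT1*, *IFIT2*, *IFIT3*, *IFIT5*, *ISG15*, *MX1*, *IFI44*, *DDX60* and *IRF9*, and they were matched by gene symbol in the deposited counts. All 9 were among the 23304 genes tested. They were chosen by name with their levels and log2 fold changes in this same comparison already known, so their differences between the groups are given below as a description and without a test. Total RNA was sequenced by strand from 3 libraries of cells expressing a control hairpin RNA (sh-control) and 3 libraries labelled as expressing a hairpin against *RREB1* (sh-RREB1), a zinc finger transcription factor. According to the study's methods, both were stable lines made with lentiviral hairpin vectors and kept under antibiotic selection. The labels name no interferon or other treatment in either group, and they do not say that the 3 libraries of a group came from separate cultures. The p-values for other genes therefore measure the spread between these libraries, which may be technical.

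Interferons are secreted signals of viral infection. They bind receptors that activate the kinases JAK1 and TYK2. A transcription factor complex that contains IRF9, a subunit that recognises DNA, then binds a short promoter sequence, the interferon-stimulated response element, and switches on a large set of antiviral genes. The IFIT proteins are among the best known products. IFIT1 binds viral RNA whose cap lacks the ribose methylation found in the host's own mRNA, IFIT2 and IFIT3 form complexes with it, and IFIT5 binds RNA with an uncapped triphosphate end. ISG15 is a ubiquitin-like protein that is joined to other proteins, MX1 is a dynamin-like GTPase that blocks influenza and related viruses, and DDX60 is a helicase-like protein linked to RNA sensing by RIG-I. IFI44 is an interferon-induced protein whose action is less well described.

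The promoters of most of these genes carry the letters of the response element, and those sequences are shown first because they are the site through which the pathway acts on its targets. RefSeq promoter windows on GRCh38.p14, from 250 bases before to 50 bases after a transcript start, were searched for the core GAAANNGAAA on either strand, which reads TTTCNNTTTC where the core lies on the strand opposite to the gene. Overlapping matches were counted separately. A window was found for 8 of the 9 genes, *IFIT2* being the exception. Each line gives the core in capitals with 10 bases on either side, read along the strand of the gene, and the name gives the first base of the core relative to the transcript start.

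*IFIT1* at -116, chr10:89392497-89392526, plus strand: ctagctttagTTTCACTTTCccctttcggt
*IFIT1* at -103, chr10:89392510-89392539, plus strand: cactttccccTTTCGGTTTCcctaggtttc
*IFIT3* first start at -156, chr10:89327831-89327860, plus strand: agccgttaggTTTCATTTTCctcctcccaa
*IFIT3* first start at -122, chr10:89327865-89327894, plus strand: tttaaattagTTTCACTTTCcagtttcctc
*IFIT5* at -45, chr10:89414513-89414542, plus strand: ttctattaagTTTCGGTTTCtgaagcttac
*IFIT5* at -19, chr10:89414539-89414568, plus strand: ttacgtttagTTTCGATTTCttaagtttca
*IFIT5* at -4, chr10:89414554-89414583, plus strand: atttcttaagTTTCAGTTTCtgagcgctcg
*ISG15* at -107, chr1:1013380-1013409, plus strand: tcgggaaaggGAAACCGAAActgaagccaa
*DDX60* at -88, chr4:168318821-168318850, minus strand: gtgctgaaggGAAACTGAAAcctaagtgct
*DDX60* at -53, chr4:168318786-168318815, minus strand: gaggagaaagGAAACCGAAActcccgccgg
*MX1* first start at 11, chr21:41420559-41420588, plus strand: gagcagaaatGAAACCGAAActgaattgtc
*IFI44* first start at -18, chr1:78649761-78649790, plus strand: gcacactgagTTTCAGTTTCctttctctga

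At least 1 core was present for 7 of the 8 genes with a window, and no match to these letters lay in the window of *IRF9*. Of all 35116 windows searched, 3.574% held a core and 0.2591% held 2 or more. Counted by gene, 4.376% of 27305 genes had a core in any window. At least 2 cores lay in a window of 5 of the 8 genes (*IFIT1*, *IFIT3*, *IFIT5*, *ISG15* and *DDX60*). *IFIT5* was the only one of the 8 with 3 in a single window. *IFIT3* had 2 in each of its 2 windows, those of its second start, at -94 and -51, not being printed above. The *ISG15* pair overlapped, with cores starting at -113 and -107. Among 49 other interferon-stimulated genes with a window 31 held a core, against 1 of 15 genes of the receptors and signalling. In log2 fold change, given below, *IFIT1* with 2 cores was the lowest of the IFIT genes and *IFIT5* with 3 was the highest. *IFIT3*, with 2 in each of its windows, lay between them, and *IFIT2* had no window. Whether the number of cores goes with the change was not tested. A match is a description of the letters and does not show binding.

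**Figure D1:**
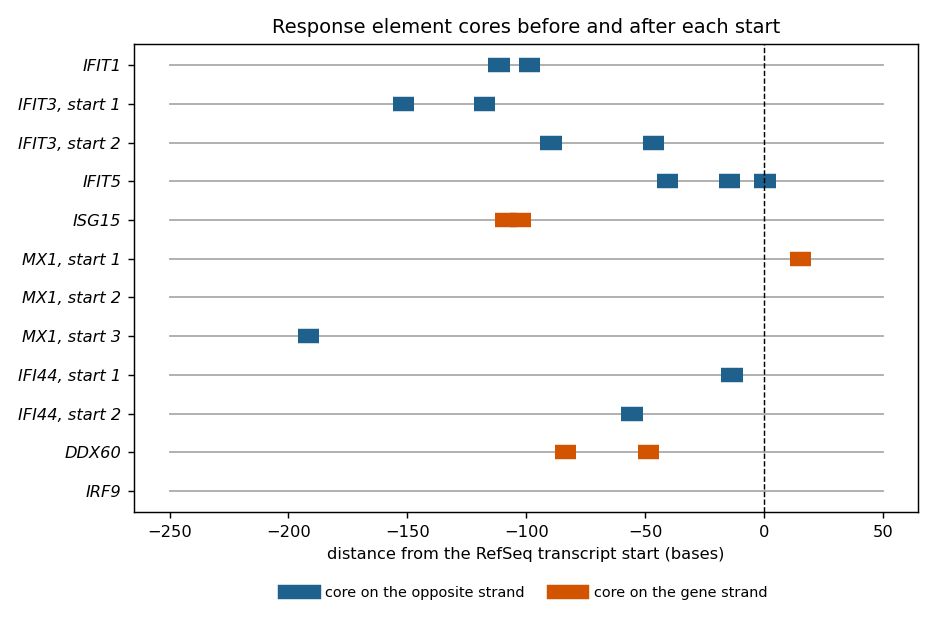
Positions of response element cores in RefSeq promoter windows (horizontal axis, bases from the transcript start; 1 row for each window; colour, strand of the core relative to the gene). *IFIT5* holds 3 cores near its start, *IFIT1* and *DDX60* hold 2 each, and *IRF9* and the second start of *MX1* hold none.

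The library facts that touch these values are few. Reads on genes numbered 23362197 to 33044061 in sh-control and 12257054 to 26145878 in sh-RREB1. The third sh-RREB1 library was the shallowest, and 52.1% of its aligned reads mapped to several places, against 3.66% to 7.63% in the other 5. *RREB1* itself stood at 27.1, 25.2 and 26.6 CPM (counts per 1000000, scaled by TMM) in sh-control, against 23.7, 24.6 and 23.2 CPM where the label reads sh-RREB1. That log2 fold change of -0.14 (SE 0.13) did not pass edgeR's quasi-likelihood test (adjusted p = 0.486 after Benjamini-Hochberg adjustment, 0.0109 to 0.788 over the alternatives), so each direction below rests on the sample labels. Every sh-RREB1 library was below every sh-control library, which held for 20.0% of all genes tested. With the trend described below removed, *RREB1* was at -0.36 (SE 0.12, edgeR adjusted p = 0.0534). The paper reports reduced *RREB1* mRNA and protein in HEK293 cells with a hairpin against it. Of the markers of kidney-derived HEK293 cells, *VIM* was high in every library and *PAX2* was near 0, with 3 reads in each sh-control library and 6 to 10 in sh-RREB1. The 7 markers together summed to 529 to 591 CPM in sh-control against 811 to 926 CPM in sh-RREB1, and their part in the results was not tested. Most of that sum was *VIM*, at 340 against 572 CPM. Without overlap 4 of the 7 were higher and 1 was lower, *CDH2* at 99.6 against 94.5 CPM. Over all genes tested these shares were 21.1% and 20.0%. The 6 markers of blood and vessel cells summed to at most 1.40 CPM in sh-control and 0.872 to 1.53 CPM in sh-RREB1, and *CD3E* and *HBB* had no read. The change of many genes followed their GC content and length. Apart from *MX1* and *IFI44*, which had very few reads, each member's value is therefore also given with a smooth trend of each library removed. That trend was on the GC content and the length of a gene's merged exons. These are bulk samples, in which fewer cells with a transcript and less of it per cell cannot be told apart.

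In outline, *IFIT1* was about 4-fold lower in sh-RREB1, *IFIT2* and *DDX60* were about 2-fold lower, *IFIT3* was lower by less than that, and *ISG15* was higher from very few reads. *IFIT5*, *IRF9*, *MX1* and *IFI44* overlapped between the groups. A gene was called where the adjusted p was below 0.01 and the log2 fold change was beyond 1 in either direction. The choice of the genes used this contrast, so their calls carry no weight of their own. They numbered 2 of 9, *IFIT1* and *DDX60*, both lower, where 3.41% of all genes tested were called, 0.699% lower and 2.71% higher. Over the 23 fits run, *IFIT1* was called in 21, *DDX60* in 7 and *IFIT2* in 6. With the GC and length trend removed 1 of the 9 was called, *IFIT1*, where 3.02% of all genes were called, 1.20% lower and 1.82% higher. Groups did not overlap for 5 of the 9, with sh-RREB1 lower for 4 and higher for 1. Over all genes 20.0% were lower without overlap and 21.1% were higher. The median log2 fold change of the 9 was -0.67, and that of all genes was 0.01.

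**Figure D2:**
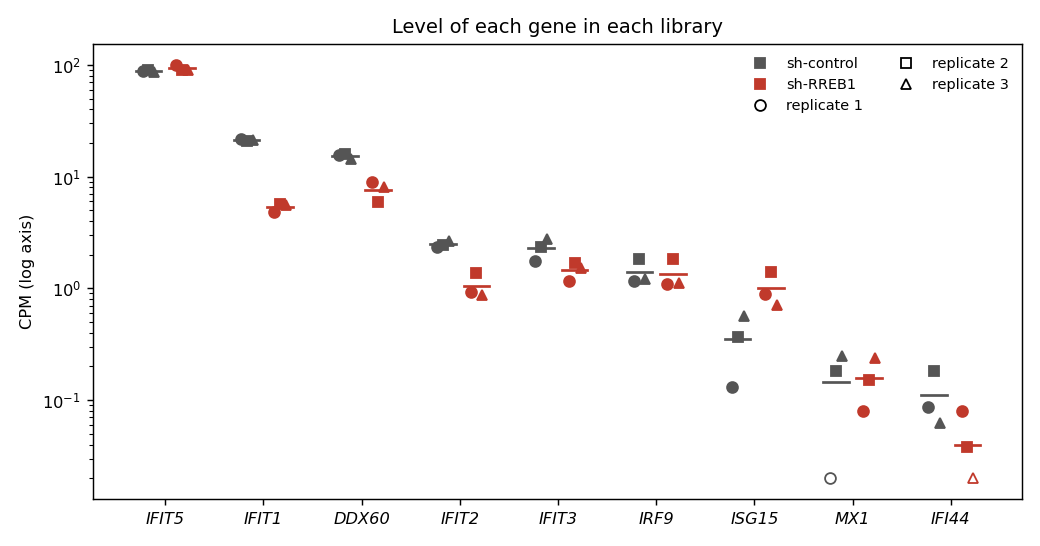
Level of each gene in every library (vertical axis, CPM on a log scale; grey, sh-control; red, sh-RREB1; symbol shapes, replicates; lines, group means). Open symbols at the bottom mark libraries with 0 reads, and the groups are clearly apart for *IFIT1*, *DDX60* and *IFIT2*.

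The IFIT genes lie side by side on the plus strand of chromosome 10, each with 2 exons in its reference transcript. *IFIT1* (chr10:89392546-89406487) was covered by 498, 571 and 680 sh-control reads and by 120, 150 and 71 in sh-RREB1. In CPM these were 21.7, 21.0 and 21.2 against 4.84, 5.73 and 5.63. Both groups were tight, with 21.3 ± 0.338 (SD, n = 3) and 5.40 ± 0.492 CPM, and they were far apart. The log2 fold change was -1.98 (SE 0.16), a 3.95-fold lower level, and it stayed between -2.03 and -1.90 when any 1 library was left out. Its GC content of 42.2% lies below the median of 46.7% for expressed genes, and with the trend removed the log2 fold change was -1.75 (SE 0.13).

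*IFIT2* (chr10:89283694-89309271), a partner of IFIT1 and IFIT3, was read far less often, with 54, 66 and 85 reads in sh-control against 23, 36 and 11 in sh-RREB1. Its levels were 2.35, 2.43 and 2.65 CPM against 0.927, 1.38 and 0.872 CPM. Every sh-RREB1 library was below every sh-control library, at 1.06 ± 0.277 (SD, n = 3) against 2.48 ± 0.155 CPM. The log2 fold change was -1.19 (SE 0.24), or 2.29-fold lower, and it was -0.97 (SE 0.24) with the trend removed.

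*IFIT3* (chr10:89327307-89377473), which stabilises IFIT1, had 40, 64 and 89 reads in sh-control against 29, 44 and 19 in sh-RREB1. In CPM the values were 1.74, 2.36 and 2.77 against 1.17, 1.68 and 1.51, so the groups were apart but nearly touched between the lowest sh-control and the highest sh-RREB1 library. The log2 fold change was -0.67 (SE 0.26) and ranged from -0.86 to -0.52 with 1 library left out. With the trend removed it was -0.50 (SE 0.26).

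*IFIT5* (chr10:89414568-89421605), the last of the row and the most abundant of the 9 genes, had 2046, 2429 and 2765 reads in sh-control against 2493, 2337 and 1133 in sh-RREB1. The levels were 89.0, 89.4 and 86.2 CPM against 100.5, 89.3 and 89.9 CPM. The groups overlapped, at 88.2 ± 1.76 (SD, n = 3) and 93.2 ± 6.28 CPM, and the log2 fold change was 0.08 (SE 0.10). It was -0.01 with upper-quartile scaling and 0.36 (SE 0.10) with the GC and length trend removed, so its sign and size depend on the scaling. *IFIT5* is the most AT-rich of the IFIT genes, with a GC content of 38.8%.

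Taken as shares of the reads on the 4 IFIT genes within each library, which no scaling between libraries can move, *IFIT1* held 18.9%, 18.2% and 18.8% in sh-control and 4.50%, 5.84% and 5.75% in sh-RREB1. *IFIT5* held 77.6%, 77.6% and 76.4% against 93.5%, 91.0% and 91.8%. For every read on *IFIT5* there were 0.235 to 0.246 reads on *IFIT1* in sh-control and 0.0481 to 0.0642 in sh-RREB1. The shares of *IFIT2* averaged 2.17% ± 0.159 (SD, n = 3) against 1.05% ± 0.304, and those of *IFIT3* averaged 2.01% ± 0.473 against 1.45% ± 0.323. The 4 genes together came to 114.8, 115.2 and 112.8 CPM in sh-control against 107.4, 98.1 and 97.9 in sh-RREB1, so that the family as a sum moved far less than *IFIT1* did.

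**Figure D3:**
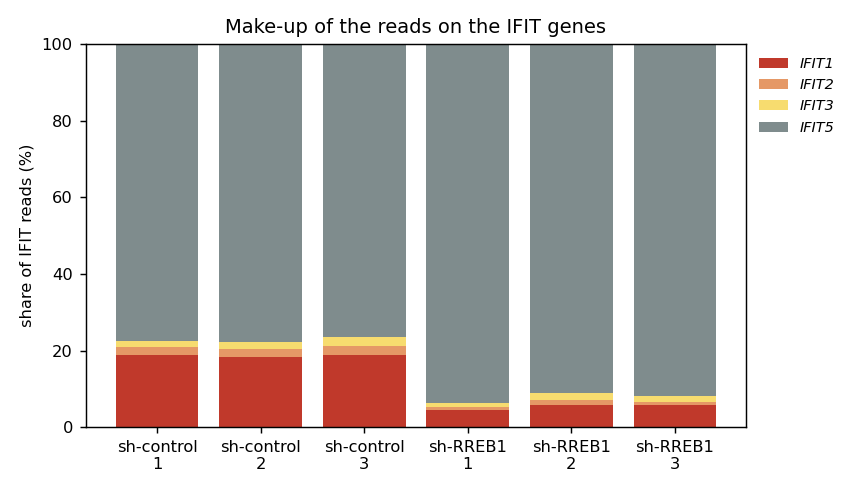
Share of the reads on the 4 IFIT genes (vertical axis, percent) in each library (horizontal axis), stacked by gene. *IFIT1* takes 18.2% to 18.9% in the sh-control libraries and 4.50% to 5.84% in the sh-RREB1 libraries, and *IFIT5* takes most of the rest.

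*LIPA*, which encodes lysosomal acid lipase, runs on the opposite strand across *IFIT2*, *IFIT3* and *IFIT1* in Gencode version 44 (chr10:89213569-89414557). Reads on the strand opposite to *IFIT1* numbered 49, 34 and 39 in sh-control and 65, 56 and 23 in sh-RREB1. They made up 5.42% to 8.96% of the reads of both strands at *IFIT1* in sh-control and 24.5% to 35.1% in sh-RREB1. The counts used here are those of the gene's own strand. In the deposited counts made without regard to strand, the log2 fold change of *IFIT1* was -1.56 and that of *IFIT3* was -0.28. *LIPA* itself averaged 124 CPM in sh-control against 155 CPM in sh-RREB1, a log2 fold change of 0.32 (SE 0.12) that did not pass edgeR's quasi-likelihood test (adjusted p = 0.107, 0.000133 to 0.339 over the alternatives).

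*DDX60* (chr4:168216291-168318883, minus strand) has 38 exons and was the third most abundant of the 9 genes. It had 359, 435 and 462 reads in sh-control against 222, 154 and 101 in sh-RREB1, or 15.6, 16.0 and 14.4 CPM against 8.95, 5.89 and 8.01 CPM. All sh-RREB1 libraries were lower, and they were more spread out (7.61 ± 1.57 CPM, SD, n = 3) than the sh-control libraries (15.3 ± 0.839 CPM). The log2 fold change was -1.01 (SE 0.19), 2.02-fold lower, just beyond the limit of 1 and called in 1 of the 6 fits that left out 1 library. With the trend removed it was -0.83 (SE 0.13). With 1 library left out it ranged from -1.15 to -0.85 before that removal and from -0.90 to -0.73 after it.

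*ISG15* (chr1:1001138-1014540) was the only gene of the 9 whose sh-RREB1 libraries all lay above the sh-control libraries. Its reads were few, at 3, 10 and 18 in sh-control and 22, 37 and 9 in sh-RREB1. The levels were 0.131, 0.368 and 0.561 CPM against 0.887, 1.41 and 0.714 CPM, with a log2 fold change of 1.48 (SE 0.47). *ISG15* is short and rich in G and C (63.4%), and with the GC and length trend removed the log2 fold change was 0.38 (SE 0.34). Without 1 library it ranged from 1.10 to 1.96 before that removal.

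*IRF9* (chr14:24161234-24168043), the DNA-binding subunit of the interferon-activated complex, had 27, 50 and 39 reads in sh-control against 27, 48 and 14 in sh-RREB1. The levels of 1.17, 1.84 and 1.22 CPM against 1.09, 1.83 and 1.11 CPM overlapped closely, and the second library of each group was the highest. The log2 fold change was -0.04 (SE 0.31), and -0.28 (SE 0.26) with the trend removed.

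*MX1* (chr21:41420020-41470071) and *IFI44* (chr1:78649796-78664078) were barely detected. *MX1* had 0, 5 and 8 reads in sh-control against 2, 4 and 3 in sh-RREB1, a ratio of scaled reads of 0.895 with an exact 95% interval of 0.338 to 2.26. *IFI44* had 2, 5 and 2 reads against 2, 1 and 0, a ratio of 0.431 with an interval of 0.0751 to 1.73. Both intervals cover counting error only and are wide at these few reads.

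**Figure D4:**
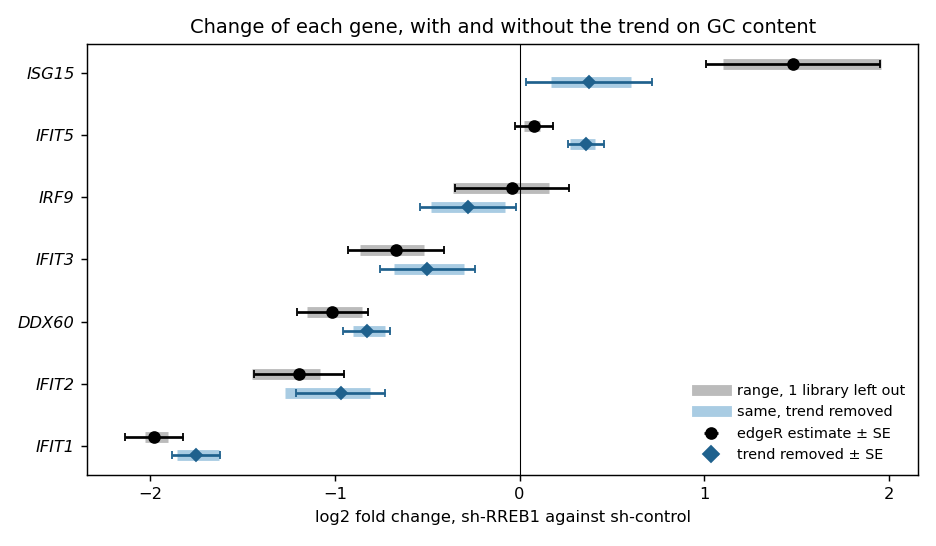
Log2 fold change of sh-RREB1 against sh-control for the 7 genes with at least 10 reads in some library (black, edgeR estimate with its SE; blue, the same with the GC and length trend removed; bars, range with 1 library left out). *IFIT1* keeps the lowest value in both, and *ISG15* moves from 1.48 to 0.38 when the trend is removed.

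Per kilobase of the reference transcript, the order of levels in sh-control was *IFIT5* (21.9 ± 0.436 CPM per kilobase, SD, n = 3), *IFIT1* (4.95 ± 0.0786), *DDX60* (2.55 ± 0.140), *IFIT3* (0.958 ± 0.218), *IRF9* (0.867 ± 0.229), *IFIT2* (0.730 ± 0.0458) and *ISG15* (0.554 ± 0.339), with *IFI44* at 0.0661 and *MX1* at 0.0520. From *IFIT3* to *ISG15*, and for *IFI44* and *MX1*, the libraries of neighbours in this order overlapped. In sh-RREB1 *IFIT5* stood at 23.1 ± 1.56 CPM per kilobase. *ISG15* (1.58 ± 0.573), *DDX60* (1.27 ± 0.261) and *IFIT1* (1.26 ± 0.114) followed at levels within each other's spread. *IRF9* (0.827 ± 0.261) and *IFIT3* (0.608 ± 0.109) came next and overlapped, and *IFIT2* (0.312 ± 0.0815) stood below them.

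The rest of the pathway was read from lists of genes that hold none of the 9. Of 9 interferon ligands, 8 had no read in any library, and *IFNE*, a type I interferon of epithelia, had 13, 2 and 8 reads in sh-control against 6, 2 and 1 in sh-RREB1. None of 20 genes of the interferon receptors and signalling was called by edgeR's quasi-likelihood test. An unadjusted p below 0.05 was reached by 10 of the 20, against 34.4% of all genes tested, and DESeq2 called 1, *PTPN6*, a phosphatase named here after its values were seen. *IFNGR1*, a receptor chain named for the same reason, stood at 116 CPM in sh-control against 69.0 CPM in sh-RREB1. Its log2 fold change of -0.75 (SE 0.12) missed the fold limit, with an edgeR adjusted p of 0.00525 (9.42e-06 to 0.0389 over the alternatives). Over these 20 genes the log2 fold changes had a median of -0.14. *JAK1* was at 364 CPM in sh-control against 319 CPM in sh-RREB1 (log2 fold change -0.19, SE 0.11) and *IFNAR1*, a receptor chain, at 119 and 112 CPM (-0.09, SE 0.20).

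Among 58 other interferon-stimulated genes, 49 could be tested, 2 fell, 2 rose and 45 did not pass. Over all genes tested 3.41% were called, 0.699% lower and 2.71% higher. The median log2 fold change of the 49 was -0.14. The pair that fell encodes sensors of viral RNA. *RIGI* (listed in the files as *DDX58*), which recognises triphosphate ends, went from 24.9, 23.1 and 23.1 CPM to 10.1, 9.94 and 8.57 CPM (log2 fold change -1.31, SE 0.15), with an adjusted p of 0.00237 in edgeR's quasi-likelihood test. *IFIH1*, the sensor of long double-stranded RNA, went from 5.70, 5.19 and 5.67 CPM to 2.34, 1.19 and 1.51 CPM (-1.71, SE 0.26), with an edgeR adjusted p of 0.00518. The pair that rose was *LGALS3BP*, a secreted galectin-binding glycoprotein, and *TRIM14*, an adaptor of antiviral signalling. *LGALS3BP* went from 2.04, 4.82 and 4.49 CPM to 32.0, 41.1 and 27.1 CPM (3.13, SE 0.32, edgeR adjusted p = 0.00181), and its log2 fold change was 2.21 with the trend removed. *TRIM14* went from 11.8 ± 0.432 to 24.4 ± 3.97 CPM (SD, n = 3; 1.05, SE 0.16), with an edgeR adjusted p of 0.00562, and it was no longer past the fold limit with the trend removed (0.76).

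Leaving out 1 library in turn, the log2 fold change ranged from -1.35 to -1.24 for *RIGI*, -2.06 to -1.48 for *IFIH1*, 2.81 to 3.30 for *LGALS3BP* and 0.91 to 1.14 for *TRIM14*, while the calls were often lost. *RIGI* and *LGALS3BP* were called in 3 of the 6 fits that left out 1 library, and *IFIH1* and *TRIM14* in 1 of 6. Without sh-control 2, sh-RREB1 1 or sh-RREB1 3 none of the 4 was called, and the highest adjusted p in edgeR's test was 0.0385. In those 3 fits the calls over all genes fell from 794 to 9, 25 and 8. With the trend removed *RIGI*, *IFIH1* and *LGALS3BP* were called in 6 of 6 such fits and *TRIM14* in 0 of 6. On all libraries the fit with the trend removed called 5 genes of this list, 2 higher and 3 lower. They included genes of low counts that the main fit did not call. Over all genes that fit called 3.02%, 1.20% lower and 1.82% higher. The most abundant genes of the list that were not called were *ADAR*, an RNA editing enzyme (486 against 495 CPM, log2 fold change 0.03), *B2M*, the light chain of class I histocompatibility molecules (255 against 198 CPM, -0.36), and *ZC3HAV1*, a zinc finger antiviral protein (205 against 164 CPM, -0.32).

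**Figure D5:**
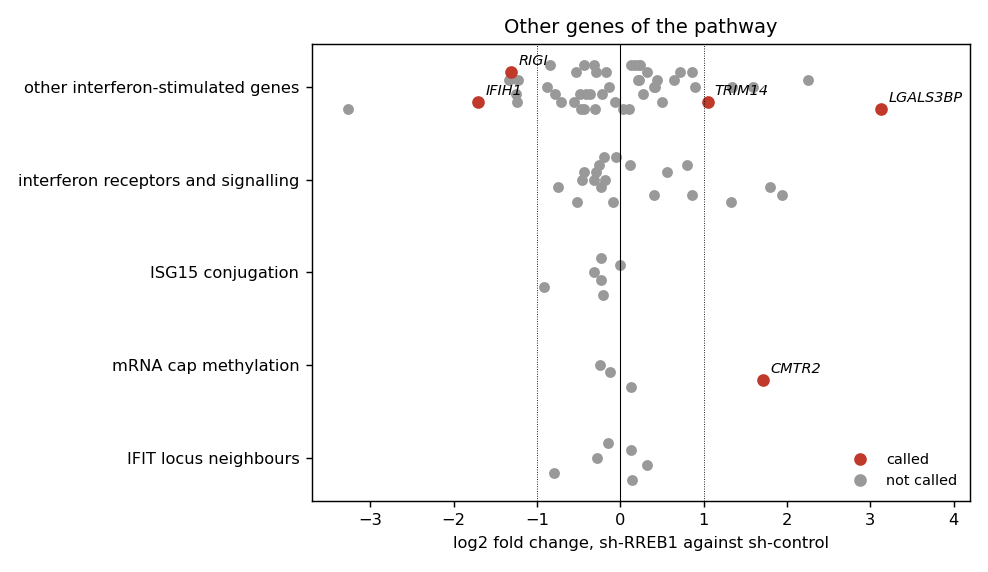
Log2 fold change of sh-RREB1 against sh-control (horizontal axis) for the tested genes of 5 lists (rows; red, called; grey, not called; dotted lines, the fold limit). *RIGI* and *IFIH1* lie below the lower limit, *TRIM14*, *LGALS3BP* and *CMTR2* above the upper one, and some grey points beyond the limits missed the adjusted p.

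The ISG15 conjugation list holds 6 enzymes that join ISG15 to proteins or remove it. None was called by edgeR's test or by DESeq2, and 1 had an unadjusted p below 0.05, against 34.4% of all genes tested. That gene was *HERC5*, the main ligase of ISG15, at 97.1, 99.4 and 90.7 CPM in sh-control against 50.9, 52.6 and 48.2 CPM in sh-RREB1. Its log2 fold change of -0.92 (SE 0.11) missed the fold limit, with an edgeR adjusted p of 0.00241 (2.2e-10 to 0.0279 over the alternatives). *ARIH1* and *UBE2L6*, enzymes of the same route, were at 163 against 141 CPM and at 14.5 against 14.5 CPM.

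Of 8 genes that neighbour the IFIT genes on chromosome 10, 6 were tested. None was called by edgeR or DESeq2, and 3 had an unadjusted p below 0.05, against 34.4% of all genes tested. *KIF20B*, a mitotic kinesin further along the chromosome, was at 306 ± 32.8 CPM against 176 ± 38.0 CPM (SD, n = 3; log2 fold change -0.79, SE 0.17), with an edgeR adjusted p of 0.0136 (1.03e-05 to 0.0574 over the alternatives). *PANK1*, a pantothenate kinase, was at 38.5 against 31.6 CPM (-0.29, SE 0.13). *IFIT1B*, a close relative of *IFIT1* between the IFIT genes, had 0, 1 and 2 reads in sh-control but none in sh-RREB1.

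Since IFIT1 reads the methylation of the mRNA cap, the cap methylation enzymes were examined as well. *CMTR2*, which methylates the ribose of the second nucleotide, rose from 12.7, 12.3 and 11.2 CPM to 47.5, 30.7 and 40.2 CPM. The log2 fold change was 1.71 (SE 0.18) with an edgeR adjusted p of 0.00204, and 1.94 with the trend removed. Its log2 fold change stayed between 1.56 and 1.87 with 1 library left out. It was called in 3 of those 6 fits and, with the trend removed, in 6 of 6. *CMTR1*, which methylates the first nucleotide (117 against 128 CPM, 0.13), *RNMT*, the cap guanine methyltransferase (74.2 against 62.5 CPM, -0.25), and *RAMAC*, its activating subunit (34.8 against 31.9 CPM, -0.12), were not called.

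The genes whose profile over the 6 libraries was nearest to the mean of the 4 IFIT genes, each centred on its own mean of log2 CPM, were sought among 14402 genes with a mean of at least 1 CPM. The root mean square difference was 0.0389 for *DYNC1I1*, 0.0402 for *BUD13*, 0.0427 for *USP54*, 0.0504 for *ZNF875* and 0.0567 for *ZNF608*. *USP54* lies on chromosome 10 with the IFIT genes and the other 4 lie elsewhere. *BUD13*, a splicing factor, had 48.1, 54.4 and 55.4 CPM in sh-control against 24.3, 32.1 and 27.1 CPM in sh-RREB1, with the highest sh-RREB1 value in the second library as for *IFIT1* and *IFIT2*. The averaged profile hides the difference within the family, since *IFIT5* did not follow it.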

How the data were processed

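RNA-seq read counts of 6 HEK293T libraries were used. The authors aligned reads with STAR to hg38 and deposited raw counts per gene for each library, by strand and without normalization, and a merged table. The counts on the gene's own strand were used here, since the labels name a stranded total RNA kit. All 24635 identifiers of the merged table held the same counts. Lines with reads on no gene were left out. Of 58037 identifiers, 55767 remained after 45 pseudoautosomal copies were dropped and symbols were collapsed, and 23304 genes with at least 10 reads in total were tested. The fit was edgeR 4.0.16 (quasi-likelihood test, TMM, R 4.3.3) on all libraries, with group as the only term, Benjamini-Hochberg adjustment, and calls where the adjusted p was under 0.01 with a log2 fold change beyond 1 either way. CPM is reads per 1000000 reads of the TMM-scaled library. The GC and length trend was a natural spline with 5 degrees of freedom in each library, entered as an offset. The model code was tested on simulated data.

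The alternatives were DESeq2 1.42.0, other scalings and filters, counts made without regard to strand, the replicate number as a block, the trend removed, and each library left out. Leaving out libraries with the trend removed was chosen after seeing the data. Coordinates are from Gencode version 44 on GRCh38. The genes described, the lists and the tests were chosen with earlier results of these data known. Named genes were the 9 genes, *RREB1*, in each list those called and up to 3 others of highest CPM, and the 5 of nearest profile. *PTPN6* and *IFNGR1* were named outside this rule, after their values were seen. A result that this rule would name is not reported here. The closest libraries, sh-control 2 and 3, still differed by more than sampling noise (chi-square per degree of freedom 4.74), so none was merged. Intervals and zero counts reflect counting error only.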

Additional observations from a re-analysis of the deposited data

Results flagged for a closer look

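A signal outside the counts used for the comparisons lay on the strand opposite to *IFIT3*, where *LIPA* is annotated. The reads there numbered 7, 3 and 12 in sh-control against 20, 17 and 5 in sh-RREB1, as labelled. Per 1000000 reads these were 0.305, 0.110 and 0.374 against 0.806, 0.650 and 0.397, so that the mean of 0.617 ± 0.207 (SD, n = 3) in sh-RREB1 lay above the mean of 0.263 ± 0.137 in sh-control and each sh-RREB1 library lay above each sh-control library. The third sh-RREB1 library rests on 5 reads. The opposite strands of all 9 genes were looked at, and the groups were apart in this way only at *IFIT3*. At *IFIT1* and *IFIT2*, which *LIPA* also crosses, they overlapped. The means there were 1.53 against 2.19 and 0.266 against 0.280 per 1000000 reads, sh-control first. On the gene's own strand 21.1% of all genes tested were higher without overlap. That share was not computed for opposite strands. The opposite strand of *IFIT5*, which *LIPA* does not reach, had 11, 26 and 22 reads against 19, 26 and 7. The source of these reads was not tested.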

How the results depend on the processing

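The 9 genes' median log2 fold change of -0.67 ranged from -0.86 to -0.52 without 1 library and from -0.68 to -0.32 with the trend also removed, the latter without sh-RREB1 1. It was not computed without sh-control 2 or with edgeR's own filter, where a gene left the table. Over all genes, 794 were called (631 higher), and 704 (424 higher) with the trend removed. The count was 2032 at an adjusted p below 0.05, 1647 with DESeq2 and 1801 with at least 1 read in total. Without 1 library it ranged from 8 to 1117. It was 8 without sh-RREB1 3, 9 without sh-control 2, 25 without sh-RREB1 1, 136 without sh-RREB1 2 and 383 without sh-control 3. With the trend removed as well it ranged from 459 (without sh-RREB1 3) to 713, with 493 without sh-RREB1 1 and 506 without sh-control 2. The receptors and signalling list had 1 call instead of 0, and the other interferon-stimulated genes 7 instead of 4, at an adjusted p below 0.05, with DESeq2 and with at least 1 read. Without 1 library that list had 0 to 6 calls, and the cap methylation list 0 to 1. The ISG15 conjugation list had 1 call, *HERC5*, with upper-quartile scaling. All fits without 1 library have fewer degrees of freedom than the main fit, and the cause of the shifts was not tested.

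Libraries of the same replicate number deviated together for numbers 1 and 2 but not for 3, so a pairing stayed unclear. Deviations from the group means correlated at 0.501, 0.433 and -0.275 between libraries of the same number over 14332 genes. With the replicate number as a block 1684 genes were called, and 869 with the trend removed as well. Depth limits *MX1* and *IFI44* and, in part, *ISG15*.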
